A study of Mus musculus with 2 samples.

Results

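Serpins are a superfamily of proteins with a shared fold, most of which trap a serine protease by offering it a flexible reactive loop as bait. The protease cuts the loop and is held in an inactive complex, so each inhibitory serpin is used up as it acts. A few members inhibit no protease and serve as chaperones or secreted factors. In the brain, serpins are known for restraining thrombin, plasminogen activators and leukocyte proteases, and *Serpina3n* is widely used as a marker of reactive astrocytes.

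The 8 serpins described here are *Serpina3n*, *Serpina3m*, *Serpina3i*, *Serpine2*, *Serpinf1*, *Serpinh1*, *Serpini1* and *Serpinb1a*. They were found by their gene symbol among the 56605 probes that are no controls, where they have 15 probes, while the array carries 87 probes for 64 serpin genes in all. Striatal RNA was hybridised to 2 single-colour arrays, 1 for WT and 1 for Cx30 KO mice, and each array holds the pooled RNA of 2 male mice. All mice, aged 8 weeks, had been injected 4 times with 20 mg/kg MPTP, a dopaminergic neurotoxin, once every 2 h, and tissue was taken on day 1 after the last dose. The strain label is C57BL/6J for WT and Cx30-LacZ for Cx30 KO mice, which lack connexin 30 in all cells, whereas the methods describe WT and Cx30 KO mice as offspring of the same heterozygous matings. Since NS-treated mice were not analysed here, each value is a difference between genotypes after MPTP and not a response to MPTP.

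With 1 pool for each genotype there was no test between groups, and genotype, pool and single mice cannot be told apart. Each value is the scanner software's processed signal in arbitrary units, followed by the error that the software gives for the spot. The log2 ratio is Cx30 KO minus WT after each array was scaled to its 75th percentile (401.2 in WT against 381.8 in Cx30 KO). Its error is carried over from the 2 spots. Between different probes of the same gene, log2 ratios varied with an SD of 0.26 (7147 genes), and neither error covers the variation between mice. A gene was called lower or higher when its ratio was at most 0.66 or at least 1.5, the ratio limits of the study's methods. *Gjb6*, which encodes Cx30, had a signal of 1788 ± 179 in WT against 111 ± 11.6 in Cx30 KO. All 9 striatal neuron markers were measured on both arrays, and 5 of 6 cortical excitatory neuron markers were higher in Cx30 KO.

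The probes of the serpin A3 genes differ in how far they resemble probes of other serpin genes. Their letters are therefore shown for the members on which the cluster comparison turns. *Serpina3n*, *Serpina3m* and *Serpina3i* lie in 1 run of serpin A genes on chromosome 12 that arose by repeated duplication in rodents. Of the 60 bases of the *Serpina3n* probe (mm9, chr12:105651918-105651977, plus strand) and of the *Serpina3m* probe (chr12:105632342-105632400), the first 30 are given. The *Serpina3i* probe (chr12:105506705-105506764) and the probe of its neighbour *Serpina3h* (chr12:105491733-105491792) are given whole, with capitals for bases that are identical between them when the sequences are laid over each other.
Serpina3n: ttggcatgcctggattagatagtgactaac
Serpina3m: atctgtgcatgtttctgaacctggagtctg
Serpina3i: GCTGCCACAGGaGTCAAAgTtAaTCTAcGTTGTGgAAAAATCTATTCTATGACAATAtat
Serpina3h: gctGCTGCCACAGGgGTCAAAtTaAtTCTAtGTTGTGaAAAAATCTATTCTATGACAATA

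The *Serpina3i* and *Serpina3h* probes shared 51 of 57 overlapping bases, with 22 identical bases in a row at the longest. The *Serpina3n* probe shared no such stretch with the probe of another serpin gene. Its best ungapped overlap held 25 of 55 bases, with *Serpind1*, and a run of at most 7 identical bases. The probes were compared with each other and not with transcripts. The *Serpina3n* signal thus came from a sequence that no other serpin probe on the array resembled, whereas the *Serpina3i* and *Serpina3h* probes were alike. This *Serpina3i* probe was not well above background on either array, while the *Serpina3h* probe had 52.3 in WT against 49.0 in Cx30 KO. Whether RNA of either gene reaches the other's probe was not tested.

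*Serpina3n*, the mouse counterpart most often set beside human alpha-1-antichymotrypsin, encodes a secreted inhibitor of granzyme B and leukocyte elastase. The signal of its single probe was 653 ± 65.4 in WT against 231 ± 23.4 in Cx30 KO. The level was 2.69-fold lower in Cx30 KO (log2 ratio −1.43 ± 0.21). Of the 22012 genes well above background on at least 1 array, 214 had a lower log2 ratio. *Serpina3n* therefore stood near the low end of the whole array, and its ratio differed from 0 by several times the software's error. In pooled tissue, fewer cells of a type cannot be told apart from less RNA in each cell.

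*Serpina3m*, whose probe lies nearest to that of *Serpina3n*, had signals of 10.3 ± 5.04 in WT against 13.0 ± 4.55 in Cx30 KO, and was not well above background on either array. The probes of *Serpina3i* gave 5.47 ± 5.26 and 4.79 ± 4.80 in WT against 11.4 ± 4.81 and 9.80 ± 4.42 in Cx30 KO, again not well above background. The lowest signals that counted as well above background were 19.8 in WT against 17.4 in Cx30 KO. Neither gene had a measured level, and no ratio is given for them. A level at or under this limit could not be detected on these arrays.

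**Figure D1:**
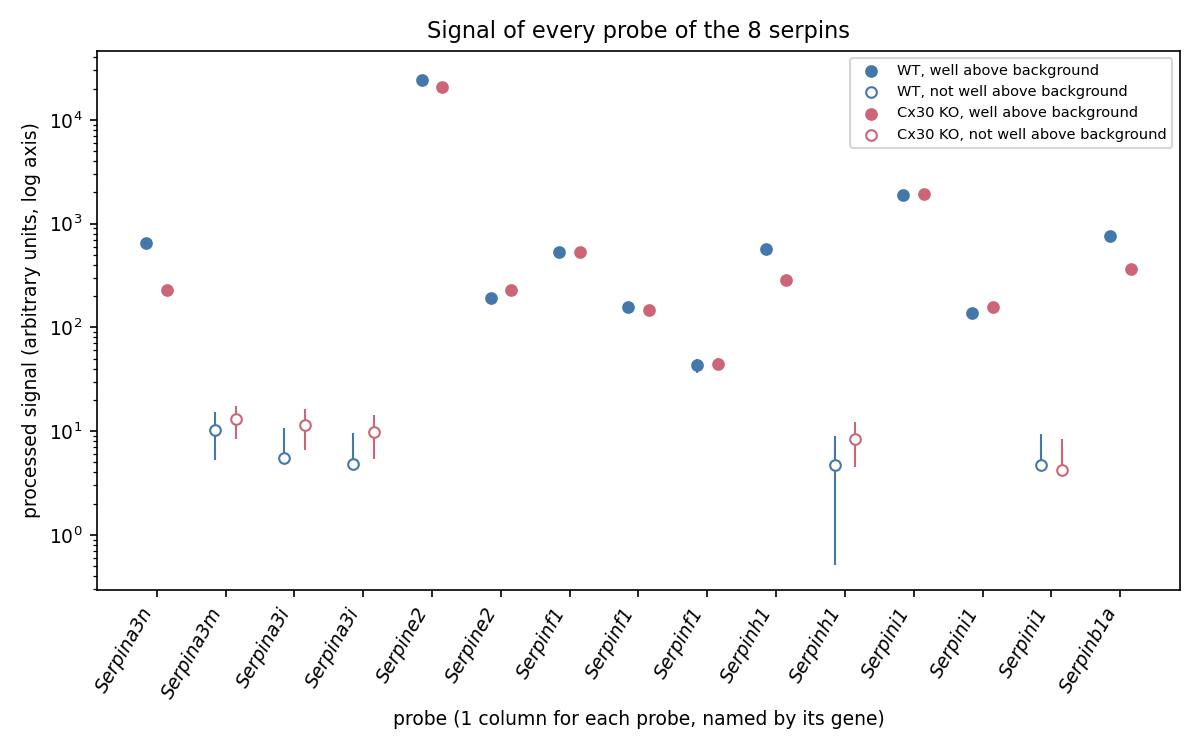
Processed signal (arbitrary units, log axis) of every probe of the 8 serpins in WT (blue) and Cx30 KO (red), 1 column for each probe. Bars are the error that the scanner software gives for a spot, with the lower bar left out where it would nearly reach 0, and open circles mark probes not well above background. The *Serpina3n* signal is 653 in WT against 231 in Cx30 KO, while both *Serpina3i* probes and the *Serpina3m* probe are open on both arrays.

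The array carries 25 serpin A genes of chromosome 12, whose probes span 799 kb in mm9. Of these, 9 were detected (well above background on 1 or both arrays), *Serpina3n* among them. With the main scaling it was the 1 gene of the run past the ratio limits, and *Serpina3j* fell just short of them. The other 6 that were well above background on both arrays had log2 ratios between −0.18 and 0.23, with a median of 0.02. *Serpina9*, an inhibitor known from germinal centre B cells, was the brightest of these, with 5662 ± 566 in WT against 6322 ± 632 in Cx30 KO, and its probes had log2 ratios of 0.23 and 0.19. *Serpina3b* had 77.2 in WT against 76.9 in Cx30 KO, and *Serpina3h* had 52.3 and 49.0. Apart from *Serpina3n* and *Serpina9*, the genes of the run measured on both arrays had WT signals from 30.3 to 77.2. Their log2 ratio errors reached 0.34. The lower level of *Serpina3n* was thus not shared by the genes of the run that were measured on both arrays, of which only *Serpina9* was bright. This does not cover *Serpina3j*, seen in WT alone, which was at least 1.51-fold lower in Cx30 KO.

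A pair of the cluster's genes were seen on 1 array. *Serpina3j* had a signal of 27.6 in WT against 6.07 in Cx30 KO, where it was not well above background, which makes it at least 1.51-fold lower and leaves it just short of the limit. *Serpina1f* was well above background in Cx30 KO alone (25.3) and was at least 1.32-fold higher. Both signals lie close to the detection limit.

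**Figure D2:**
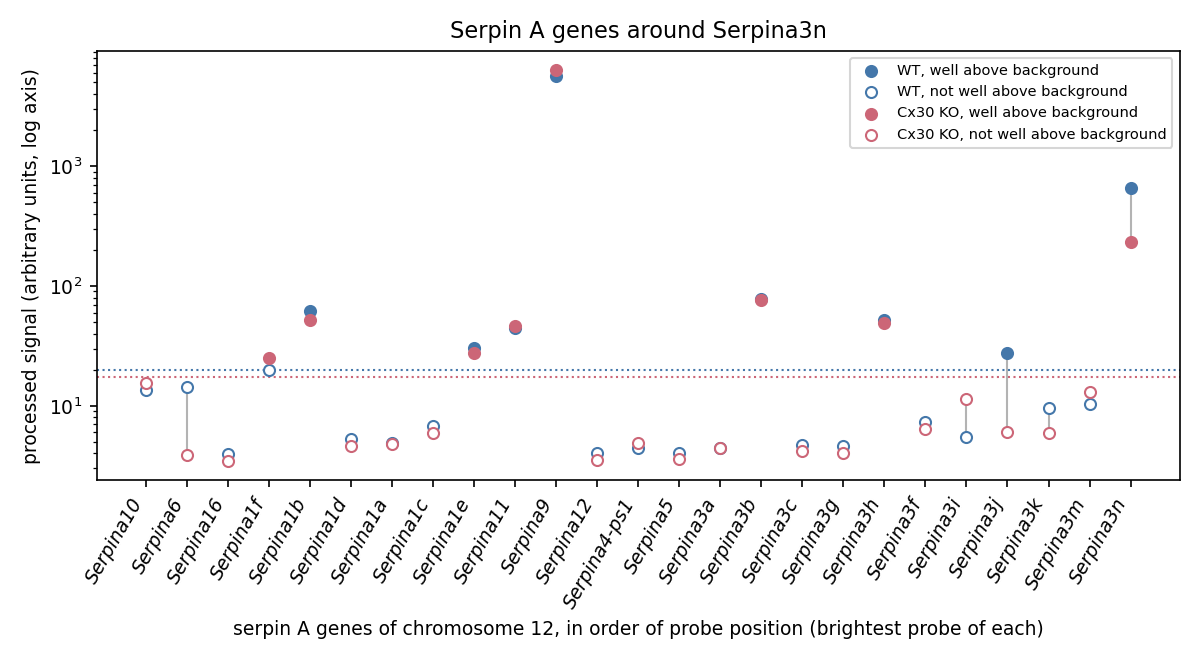
Processed signal (arbitrary units, log axis) of the brightest probe of each of 25 serpin A genes of chromosome 12, in order of probe position, in WT (blue) and Cx30 KO (red). Open circles mark probes not well above background, dotted lines are the lowest signals well above background on each array, and grey lines join the arrays. *Serpina3n*, at the right end, has the widest gap among genes with filled circles on both arrays.

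RefSeq promoter sequences (GRCm38.p6) were matched for 6 of the 8 serpins by symbol. Those of *Serpina3n* and *Serpina3i* are shown because the genes belong to the same run and had unlike signals in the same tissue. By probe position, other serpin A3 genes lie between them, *Serpina3m* among these. Each run is the 250 bases before the annotated start, on the plus strand (chr12:104406458-104406707 and chr12:104262872-104263121). Capitals mark a match to the palindromic glucocorticoid response element in *Serpina3n* and to the STAT motif TTCNNNGAA in *Serpina3i*, where N is any base.
Serpina3n promoter: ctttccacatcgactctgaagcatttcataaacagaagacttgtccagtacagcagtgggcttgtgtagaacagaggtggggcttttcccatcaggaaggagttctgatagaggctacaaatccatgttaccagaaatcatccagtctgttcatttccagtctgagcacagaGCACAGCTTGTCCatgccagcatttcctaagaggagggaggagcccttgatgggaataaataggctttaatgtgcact
Serpina3i promoter: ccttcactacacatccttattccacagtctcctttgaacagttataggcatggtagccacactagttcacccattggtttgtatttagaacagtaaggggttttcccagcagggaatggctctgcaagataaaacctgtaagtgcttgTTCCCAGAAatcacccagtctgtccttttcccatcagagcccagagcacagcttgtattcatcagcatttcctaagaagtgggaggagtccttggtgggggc

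The promoters were identical at 163 of 229 aligned bases (71.2%). The glucocorticoid response element began 78 bases before the *Serpina3n* start, and 0.387% of all 32851 promoters hold a match on either strand. In the aligned window of *Serpina3i*, 7 of its 8 fixed letters were met. The STAT motif began 102 bases before the *Serpina3i* start, 7.02% of promoters hold it, and the aligned window of *Serpina3n* met 5 of its 6 fixed letters. The promoters thus differed by a single fixed letter in each window. Searched on both strands in the 6 promoters, the AP-1 motif TGANTCA (6.75% of all promoters), the heat shock element GAANNTTC (6.69%), the C/EBP motif TTGCNNAA (9.56%) and the TATA box TATAAA (12.4%) had 0 matches. The NF-kB motif, which 45.8% of promoters hold, matched in 5 of the 6. A match of letters is a description of the sequence and not a binding site.

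Across the 8 serpins, 3 were lower, 0 were higher, 3 stayed within the limits and 2 had no measured level. Over all genes, 5.63% (1240) were lower and 5.61% (1235) were higher by the same limits, and with normexp background correction these counts were 561 and 365. With limits of 2 and 0.5, 1.95% of all genes were lower and 1.71% higher, with 1 lower serpin of the 8 (*Serpina3n*). When the ratio also had to pass a Z-score of 2 among probes of like signal, the same 3 serpins were lower, beside 2.8% of all genes lower and 1.88% higher. The serpins were listed with results of these arrays known, so their share is not read against that background. The other lower genes were *Serpinb1a* and *Serpinh1*. In order of their log2 ratios from the lowest, the 6 measured serpins were *Serpina3n*, *Serpinb1a*, *Serpinh1*, *Serpine2*, *Serpinf1* and *Serpini1*.

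The widest step in this order lay between *Serpinh1* and *Serpine2*, at 0.73 ± 0.29 on the log2 scale. *Serpinb1a* differed from *Serpina3n* by 0.44 ± 0.29, a difference larger than its spot error. That error leaves out the SD of 0.26 between probes of 1 gene, and both genes have 1 probe. Their order is therefore not taken as resolved. The remaining neighbours differed by 0.05 to 0.23, within an error of 0.29. The order within the lower genes *Serpinb1a* and *Serpinh1*, and within *Serpine2*, *Serpinf1* and *Serpini1*, was therefore not resolved. The 3 lower serpins each rested on 1 detected probe, whereas the 3 others each had 2 or 3.

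*Serpinb1a* encodes an intracellular serpin that inhibits neutrophil elastase, cathepsin G and proteinase 3. It has 1 probe (mm9, chr13:32934693-32934752, minus strand), shown whole because the gene's value rests on it.
Serpinb1a: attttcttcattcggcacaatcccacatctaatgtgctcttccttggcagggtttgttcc

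The *Serpinb1a* signal was 753 ± 75.4 in WT against 361 ± 36.3 in Cx30 KO. This is a 1.98-fold lower level, with a log2 ratio of −0.99 ± 0.20. Its closest relatives on chromosome 13 were dimmer. *Serpinb1c* had 109 ± 11.7 in WT against 61.6 ± 7.24 in Cx30 KO, a log2 ratio of −0.75 ± 0.23 that was also past the limit. Its Z-score of −1.81 did not pass the Z-score limit. The other *Serpinb1c* probe (6.67 in WT against 3.52 in Cx30 KO) was not well above background on either array. *Serpinb1b* had 51.4 in WT against 46.0 in Cx30 KO (log2 ratio −0.09 ± 0.27). *Serpinb1a* and *Serpinb1c* were thus both lower in Cx30 KO, and *Serpinb1b* lay within its error of 0. The best match of the *Serpinb1a* probe to another serpin probe held 26 of 58 bases. Probes were not compared with transcripts, so whether RNA of *Serpinb1a* and *Serpinb1c* reaches the same probe was not tested.

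*Serpinh1* encodes HSP47, a chaperone of the endoplasmic reticulum that binds folding collagen and inhibits no protease. The probe for its mRNA (mm9, chr7:106493971-106494030, minus strand) begins with these 30 bases.
Serpinh1: ggggaggggaaatatgagcctttgttgctt

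Its signal was 565 ± 56.7 in WT against 286 ± 28.9 in Cx30 KO, a 1.88-fold lower level with a log2 ratio of −0.91 ± 0.21. Another probe that carries the symbol belongs to a cDNA clone placed on the opposite strand (chr7:106494061-106494120). It had 4.76 in WT against 8.32 in Cx30 KO, was not well above background on either array and gives no level. The value of *Serpinh1* is that of a single probe.

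The inhibitors of plasminogen activators and thrombin lay within the limits. *Serpine2* encodes protease nexin-1, which astrocytes and other glia secrete and which inhibits thrombin and plasminogen activators. Its brighter probe (mm9, chr1:79790914-79790973) had 24428 ± 2443 in WT against 20479 ± 2048 in Cx30 KO (log2 ratio −0.18 ± 0.20). Its other probe, drawn from an Ensembl transcript (chr1:79854083-79854142), had 191 ± 19.7 in WT against 228 ± 23.2 in Cx30 KO (log2 ratio 0.33 ± 0.21). The probes pointed opposite ways, and the mean of both log2 ratios was 0.073, so no direction is given for *Serpine2*.

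*Serpini1* encodes neuroserpin, an inhibitor of tissue plasminogen activator that neurons secrete. Its brightest probe (chr3:75446123-75446182) had 1879 ± 188 in WT against 1915 ± 192 in Cx30 KO (log2 ratio 0.10 ± 0.20). A dimmer probe (chr3:75420571-75420630) had 137 ± 14.6 and 158 ± 16.4, with a log2 ratio of 0.27 ± 0.21. A further probe was not well above background on either array (4.71 and 4.22). Both measured probes were slightly higher in Cx30 KO and both stayed within the limits.

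*Serpinf1* encodes PEDF, a secreted factor with neurotrophic and antiangiogenic activity that inhibits no protease. Its 3 probes were all well above background on both arrays. The brightest (chr11:75223568-75223627) had 537 ± 53.8 in WT against 529 ± 53.1 in Cx30 KO (log2 ratio 0.05 ± 0.20). The others had log2 ratios of −0.03 ± 0.21 and 0.13 ± 0.30. All 3 log2 ratios of *Serpinf1* lay within their error of 0.

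Of the 56 serpins outside the 8, 23 were detected (well above background on 1 or both arrays), of which 2 were lower and 1 was higher. Their median log2 ratio was −0.02, against 0.03 over all genes. By the same limits, 5.63% of all genes were lower and 5.61% higher, so these counts are not read as a trait of serpins. The lower genes were *Serpinb1c* and *Serpinf2*, which encodes alpha-2-antiplasmin, the main inhibitor of plasmin. *Serpinf2* had 71.7 in WT against 22.6 in Cx30 KO, a log2 ratio of −1.59 ± 0.31, the lowest among serpins measured on both arrays. Its Cx30 KO signal, from a single probe, lies close to the lowest signal well above background on that array (17.4). Its probe lies 21.6 kb from the brightest probe of *Serpinf1*, whose ratio lay within its error of 0. The higher gene was *Serpine3*, which was well above background in Cx30 KO alone (32.0, against 4.60 in WT) and was at least 1.70-fold higher. Its probe is located on chromosome 14, at 5.57 Mb from that of *Gjb6*. The remaining 35 serpin genes, with *Serpina3m* and *Serpina3i* among them, were not well above background on either array.

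**Figure D3:**
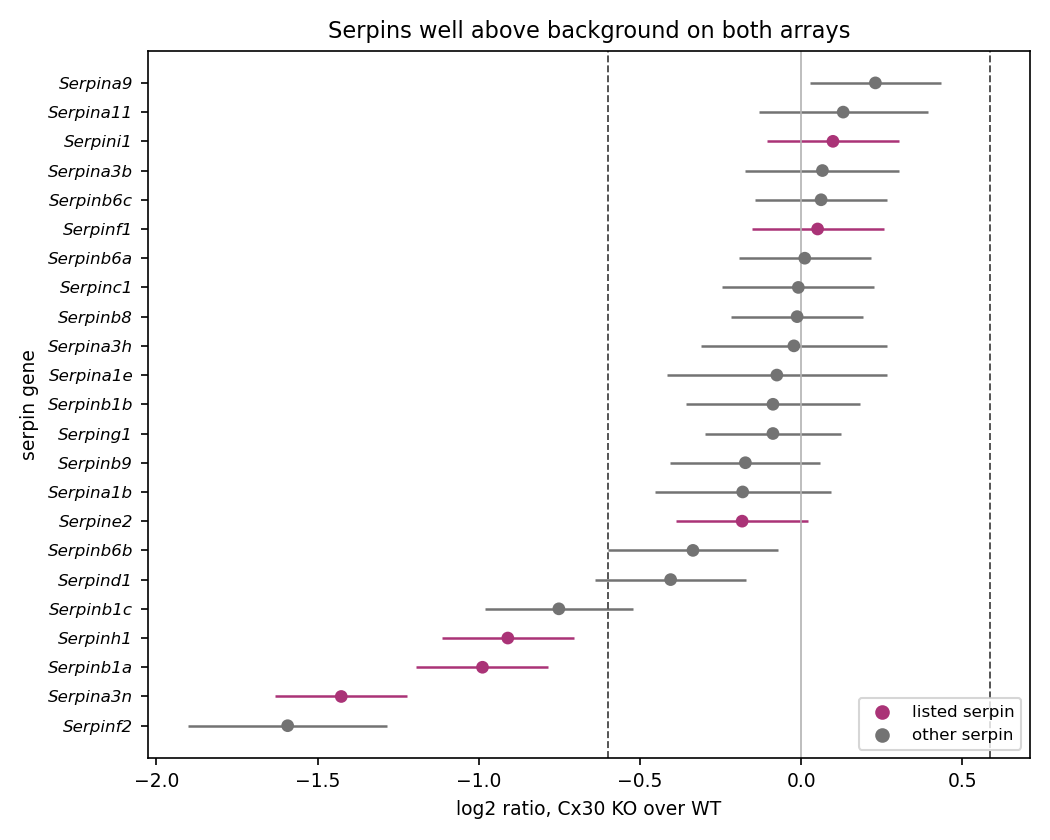
Log2 ratio of Cx30 KO over WT for 23 of the 24 serpin genes well above background on both arrays, by the brightest probe of each, with purple for the 6 measured members of the 8 and grey for others. Bars are the error carried over from the scanner software's spot errors, and dashed lines are the ratio limits of 0.66 and 1.5. *Serpinf2*, *Serpina3n*, *Serpinb1a*, *Serpinh1* and *Serpinb1c* lie left of the lower limit, and none of those shown (0) lies right of the upper limit.

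Among 15 proteases that serpins are known to restrain, 9 were detected on at least 1 array. Of these, 1 was lower and 2 were higher, and the median log2 ratio was 0.13. The counts for this list and those below stand beside 5.63% of all genes lower and 5.61% higher. *Klk6*, a kallikrein that oligodendrocytes make, had 786 in WT against 152 in Cx30 KO (log2 ratio −2.30). *Prss12*, which encodes neurotrypsin, an agrin-cleaving protease of neurons, had 82.1 in WT against 798 in Cx30 KO (log2 ratio 3.35). *Gzmb*, which encodes the *Serpina3n* target granzyme B, was well above background in Cx30 KO alone, at 64.6, and was at least 3.44-fold higher. The *Gzmb* probe (mm9, chr14:56877916-56877975) lies nearer to that of *Gjb6* (chr14:57742226-57742285) than the *Serpine3* probe does. Whether this position bears on its level was not tested. *Plat*, which encodes tissue plasminogen activator, had 484 and 404, with a log2 ratio of −0.19. *Elane*, which encodes neutrophil elastase, had 316 in WT against 344 in Cx30 KO (log2 ratio 0.19). *Prtn3*, which encodes proteinase 3, had 38.4 in WT against 49.9 in Cx30 KO (log2 ratio 0.45). The measured targets of *Serpina3n* and *Serpinb1a* in the list were thus not lower, and *Ctsg*, which encodes cathepsin G, was not well above background on either array.

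Of 10 genes for serpin receptors and clearance, 9 were well above background on 1 or both arrays and 0 were past the limits, with log2 ratios from −0.33 to 0.50. They include *Lrp1*, the receptor that takes up serpin-protease complexes, at 3171 in WT against 2978 in Cx30 KO (log2 ratio −0.02). *Pnpla2*, which encodes a lipase that also binds PEDF, and the endocytic receptor gene *Lrp2* had the highest log2 ratios, both 0.50. Of 15 protease inhibitors that are no serpins, 14 were well above background on 1 or both arrays, with 3 lower, 1 higher and a median log2 ratio of 0.07. The lower genes were *Timp1*, an inhibitor of matrix metalloproteases (1161 in WT against 298 in Cx30 KO, log2 ratio −1.89), *Cst7*, which encodes cystatin F (195 and 62.3, log2 ratio −1.58), and *A2m*, which encodes alpha-2-macroglobulin, was well above background in WT alone and was at least 3.99-fold lower. *Slpi*, an inhibitor of leukocyte elastase, was higher (47.1 and 85.2, log2 ratio 0.93). Abundant brain inhibitors such as *Cst3* (log2 ratio 0.01) and *Timp2* (0.27) stayed within the limits.

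Among 16 collagens and genes for collagen folding, in which *Serpinh1* takes part, all 16 were well above background on 1 or both arrays (14 on both), 2 were lower and 0 were higher, with a median log2 ratio of −0.07. The lower genes were *Crtap*, a subunit of the prolyl 3-hydroxylase complex (403 in WT against 187 in Cx30 KO, log2 ratio −1.04), and *Plod1*, a lysyl hydroxylase (285 and 152, log2 ratio −0.84). The collagen genes themselves stayed within the limits. *Col1a2* had 349 in WT against 373 in Cx30 KO, *Col4a1* had 296 and 386, *Col4a2* had 459 and 562, and *Col1a1* had 39.4 and 44.9. *Col3a1* went the other way, being well above background in WT alone (24.0) and at least 1.31-fold lower.

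*Serpina3n* belongs to the 13 genes commonly used as pan-reactive astrocyte markers. Without it, 11 of the other 12 were well above background, with 9 lower, 0 higher and a median log2 ratio of −1.04, while its own was −1.43. The nearest to it was *Vim*, with a log2 ratio of −1.44 (2758 in WT against 967 in Cx30 KO), and *Gfap* had −1.62. *Cd44* (−2.44), *S1pr3* (−2.32) and *Timp1* were lower still. General astrocyte markers did not share this. Of 9, 1 was lower (*Aqp4*, log2 ratio −0.95) and 0 were higher, and their median log2 ratio was 0.01.

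**Figure D4:**
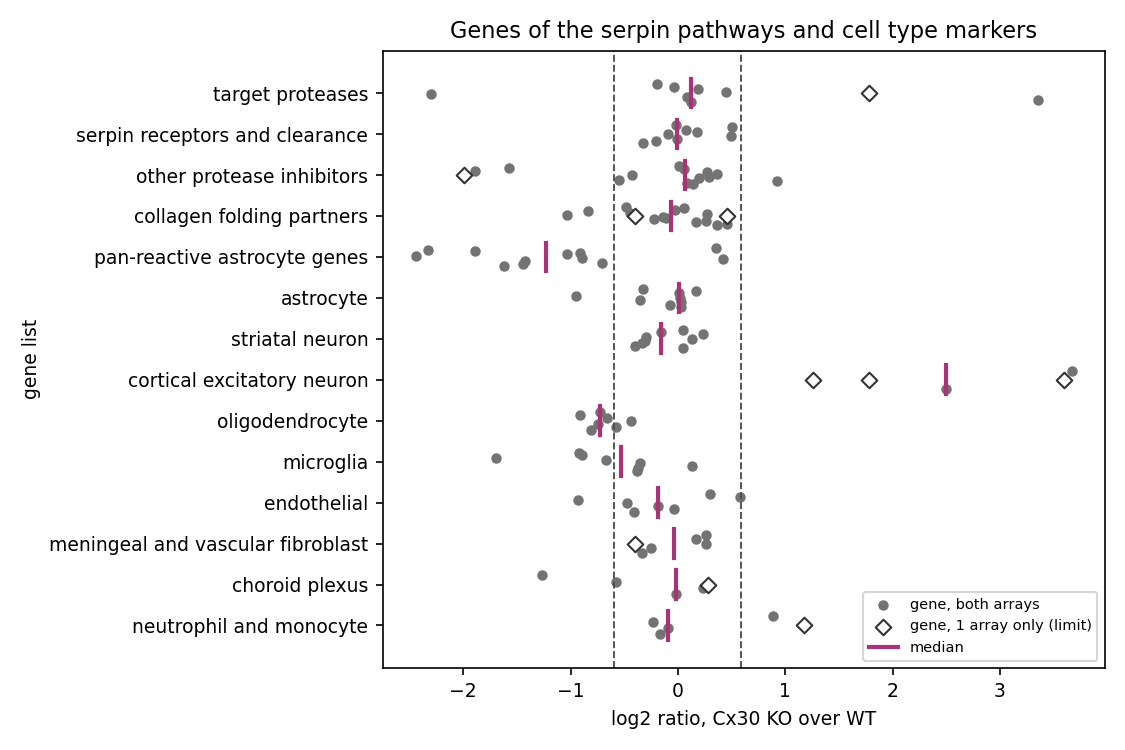
Log2 ratio of Cx30 KO over WT for the genes of 5 serpin-related lists (top) and 9 lists of cell type markers. Grey points are genes well above background on both arrays, open diamonds are limits for genes seen on 1 array, purple bars are medians of each list and dashed lines are the ratio limits. The pan-reactive list, with a median of −1.23 including *Serpina3n*, has that median left of the limit, as has the oligodendrocyte list (−0.73).

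The pools also differed in markers of other cell types. All 7 oligodendrocyte markers had log2 ratios under 0, 5 of them past the limit, with a summed scaled level of 364 in WT against 232 in Cx30 KO. *Mog* (log2 ratio −0.91) and *Opalin* (−0.81) were the lowest, followed by *Mag* (−0.74) and *Mbp* (−0.73). Of 8 microglia markers, 4 were lower, with sums of 230 and 222, or 80.6 and 58.4 without the brightest marker, *Itgam*, the 1 marker with a log2 ratio above 0 (0.13). The lower ones were *P2ry12* (log2 ratio −1.69), *Aif1* (−0.93), *Tmem119* (−0.90) and *Cx3cr1* (−0.67). Of 6 cortical excitatory neuron markers, 5 were higher, with sums of 0.400 and 3.58, and 4 were not well above background in WT. *Neurod2* (log2 ratio 3.67) and *Tbr1* (2.50) had a level on both arrays, while *Slc17a7* was at least 12.1-fold and *Neurod6* at least 3.44-fold higher. Striatal neuron markers (9 of 9 within the limits) had sums of 1226 and 1272. Of 7 neutrophil and monocyte markers, 2 were higher, *S100a9* with 69.4 in WT against 122 in Cx30 KO, and *S100a8* at least 2.26-fold higher. *Camp* (log2 ratio −0.23), *Ly6c2* (−0.17) and *Ly6g* (−0.09) lay under 0 and within the limits, and the median of the list was −0.09. Its sums were 26.7 in WT and 24.1 in Cx30 KO, or 0.743 and 0.908 without the brightest marker, *Ly6c2*. *Ngp* and *Ccr2* were not well above background on either array. Among 7 fibroblast markers, 0 were past the limits, and 1 of 7 endothelial (*Flt1*, log2 ratio −0.93) and 1 of 6 choroid plexus markers (*Ttr*, −1.27) were lower. The part of these shifts in the values of *Serpina3n*, *Serpinb1a* and *Serpinh1* was not tested.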

How the data were processed

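Processed signals were taken from the Feature Extraction files that the authors deposited. They are linear intensities with the background subtracted and trends removed within each array by the software (version 10.7.1.1 in the file headers, 9.5.1.1 in the processing notes), and are not normalised between arrays. Probe positions refer to mm9. The authors' table of normalised intensities was checked against quantile-normalised processed signals, and 99.991% of its values lay within 1% of them. Of 62976 spots on each array, controls and outliers were left out, log2 signals were averaged over a probe's spots, and each array was scaled to its 75th percentile. Probes with the software's mark on 50% or more of their spots counted as well above background (56.6% for WT, 58.2% for Cx30 KO), and 0 probes were saturated. Probes printed in 10 spots had a median CV of 2.72% (WT) and 2.83% (Cx30 KO). A gene was represented by its brightest probe above background on at least 1 array. A total of 2036 probes had an older symbol replaced through a RefSeq table. A gene seen on 1 array was set against the larger of the lowest signal above background and its own signal on the other array. The Z-score is the log2 ratio's distance, in SDs, from the mean of the 1000 probes nearest in mean signal. The number of arrays limits the precision. Calls were tested on simulated data. The simulation held known changes and random noise without variation between mice, so it checks the calling and not a difference between genotypes. Among the other serpins, 1 is neither named nor plotted and is not reported here, but counts and medians over serpins include it. Others that are not named enter the counts, ranges and plots.

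The 8 serpins and all gene lists were chosen with earlier results of these data known. Genes were named when they were among the 8, encoded Cx30, or were past the limits among other serpins and in a list, up to 4 in each direction. Genes within the limits (*Serpina9*, *Serpina3b*, *Serpina3h*, *Serpina3j*, *Serpina1f*, *Serpinb1b*, *Plat*, *Elane*, *Prtn3*, *Ctsg*, *Ngp*, *Ccr2*, *Itgam*, *Lrp1*, *Lrp2*, *Pnpla2*, *Cst3*, *Timp2* and the collagens) and *Vim* were named after their values were seen. The same holds for *Camp*, *Ly6c2* and *Ly6g*, which were within the limits. Python 3.11.15, numpy 2.4.6, pandas 2.3.3 and limma were used. Alternatives were quantile and median scaling, normexp correction (offset 50), the authors' table, the mean of a gene's probes, other filters on dim probes, ratio limits of 2 and 0.5, and a Z-score limit of 2.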

Additional observations from a re-analysis of the deposited data

How the results depend on the processing

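*Serpina3n*, *Serpinb1a* and *Serpinh1* were lower under each of the 5 alternatives for scaling, background correction, source of values and probes of a gene, with log2 ratios from −1.47 to −1.22, −1.04 to −0.89 and −0.96 to −0.76. The value of *Serpina3n* moved by more than its spot error with normexp correction (−1.22), and that of *Serpine2* with the mean of its probes (0.073), which turned its sign. Among the other serpins, 3 were lower with quantile scaling, median scaling or the authors' table, against 2 with the main scaling. With the main scaling, the uncalled serpin nearest to the lower limit was *Serpina3j* of the chromosome 12 run, at least 1.51-fold lower. Normexp correction left 561 genes lower and 365 higher, and among the other serpins 1 lower and 0 higher. Without a filter on dim probes there were 2656 lower and 3581 higher genes, 1 higher member, and 8 lower and 3 higher other serpins. With genes above background on both arrays, 807 genes and 0 other serpins were higher. With ratio limits of 2 and 0.5, 1 member was lower, as were 430 genes and 1 other serpin, and 376 genes and 0 other serpins were higher. With the Z-score limit, 617 genes and 1 other serpin were lower, and 414 genes and 0 other serpins were higher, while 3 members stayed lower. The filters and limits change these counts by construction, and the cause of the shift with normexp correction was not tested. No paired analysis was possible because each genotype has 1 array, and for the same reason no replicate could be left out.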
